A study of Mus musculus with 6 samples.

Results

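The genes of the Kruppel-like factors (KLFs) Klf2, Klf3, Klf4, Klf5, Klf6, Klf9, Klf10, Klf13 and Klf15 were examined for open chromatin in crypts of the mouse intestine. ATAC-seq uses a transposase that cuts and tags accessible DNA, and a peak marks where tagged fragments pile up above the background. A peak belonged to a locus when its summit, the base with the highest pileup, lay within the gene body or the 50 kb on either side. The 6 lists of peaks, 1 per sample, held 70 to 88 such peaks each, out of 40492 to 58297 peaks. Peaks from different lists that shared at least 1 base were merged into consensus peaks, and 113 of 71286 consensus peaks belonged to the 9 loci. The samples came from 3 wild-type (WT) mice and 3 mice with a conditional knockout (cKO) of Arid3a. The cKO mice were VillinCre-ERT2+/-; Arid3a fl/fl, so that tamoxifen removed Arid3a in Villin-expressing epithelial cells and not in the stroma. All animals of both genotypes received tamoxifen on 3 consecutive days, and crypts were taken 1 month after the first of them. Arid3a encodes a DNA-binding protein that prefers sites rich in A and T. The crypts were measured in bulk, so fewer cells open at a site and less opening per cell cannot be told apart. Nothing in the labels says how samples of the same number are related, and p-values measure the spread between these 6 samples.

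KLFs are transcription factors that bind GC-rich and CACCC sequences through 3 zinc fingers at their C terminus. In the intestinal epithelium Klf5 is known for its role in the dividing cells of the crypt and Klf4 for its role in differentiated cells, goblet cells among them. Klf2 restrains the activation of lymphocytes and endothelial cells, Klf3 represses through the corepressor CtBP, and Klf9, Klf10 and Klf13 share an N-terminal region that recruits Sin3. Klf6 is a broadly expressed early-response member, and Klf15 is known for metabolic control in liver and muscle.

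The 6 lists were not alike in signal. The shortest list was WT 1 (40492 peaks) and the longest cKO 1 (58297 peaks), and the median pileup at a summit ranged from 28 in WT 1 to 44 in cKO 1. The pileup is the number of fragments, or of extended reads, that cover a base, and the sources used here do not settle which of them the caller counted. Promoter peaks called in all 6 lists had a median local background of 2.99 to 7.03 times the genome-wide background, lowest in WT 1 and highest in cKO 1, with cKO 2 at 3.83 and cKO 3 at 5.67. Promoter peaks (summit from 1000 bp before to 100 bp after an annotated start) were called at 7 to 9 of 11 marker genes of intestinal epithelium, 0 or 1 of 10 of leukocytes and 2 to 4 of 10 of mesenchyme and endothelium. Of the epithelial markers 4 had one in all 6 lists and Cdx1 in none. Of the mesenchyme and endothelium markers 2 had one in all 6 lists, Col1a1 and Pdgfra. A promoter peak of Arid3a itself was called in all 6 lists, so it did not check the labels.

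The sequences below show the kinds of element that the loci held. The first 3 are RefSeq promoters (GRCm38.p6), the 250 bases before the annotated start on the strand of the gene, and stand for the strongest pileup of the members (Klf13), a weaker one (Klf4) and no KLF site (Klf9). RefSeq entries were matched for 7 of the 9 members, all but Klf5 and Klf10. Capitals mark letters that matched any of the motifs sought, listed further on. The Klf13 promoter, at chr7:63938916-63939165 on the minus strand, held 3 KLF sites. The Klf4 promoter, at chr4:55532476-55532725 on the minus strand, held 4, of which 2 overlapped. The Klf9 promoter, at chr19:23140976-23141225 on the plus strand, matched none of the motifs.
Klf13 promoter: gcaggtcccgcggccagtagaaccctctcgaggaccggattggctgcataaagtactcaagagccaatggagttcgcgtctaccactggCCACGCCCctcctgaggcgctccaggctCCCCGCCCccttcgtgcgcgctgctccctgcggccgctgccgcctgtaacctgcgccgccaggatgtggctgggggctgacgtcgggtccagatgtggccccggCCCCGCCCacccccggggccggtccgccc
Klf4 promoter: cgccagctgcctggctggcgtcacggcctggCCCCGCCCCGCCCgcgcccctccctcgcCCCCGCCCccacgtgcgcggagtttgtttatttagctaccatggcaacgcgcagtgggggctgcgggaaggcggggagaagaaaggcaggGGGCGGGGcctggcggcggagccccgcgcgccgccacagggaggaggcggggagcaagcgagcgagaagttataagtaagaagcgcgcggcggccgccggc
Klf9 promoter: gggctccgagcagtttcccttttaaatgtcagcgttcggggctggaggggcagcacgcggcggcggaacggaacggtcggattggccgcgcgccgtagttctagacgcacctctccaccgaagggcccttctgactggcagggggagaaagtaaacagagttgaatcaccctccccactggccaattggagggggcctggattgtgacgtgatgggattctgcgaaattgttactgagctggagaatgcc

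The next 5 are the 201 bases around the summit of distal peaks, on the plus strand of GRCm38. Distal peaks are those in no promoter of any gene. They were chosen because they ranked highest by fold at Klf4 and Klf5, differed most in the mean between genotypes in the upward direction at Klf6, or ranked without overlap between genotypes by one measure or another at Klf3. They lie at chr4:55514822-55515022 (17.5 kb from the Klf4 start, past its 3′ end), chr14:99281035-99281235 (17.6 kb before Klf5), chr13:5813517-5813717 (47.9 kb before Klf6), chr5:64861784-64861984 (58.5 kb from the Klf3 start) and chr5:64864793-64864993 (61.5 kb from the Klf3 start). All 5 are intergenic. The Klf4 window held 2 KLF sites, the second Klf3 window held 3, all of them CCACACCC, and the Klf5 window held an HNF4, a CDX and a GATA site.
Klf4 +17.5 kb: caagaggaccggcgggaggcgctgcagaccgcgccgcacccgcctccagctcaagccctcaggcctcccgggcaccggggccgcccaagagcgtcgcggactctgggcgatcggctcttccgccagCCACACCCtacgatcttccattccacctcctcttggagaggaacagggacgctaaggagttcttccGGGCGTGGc
Klf5 -17.6 kb: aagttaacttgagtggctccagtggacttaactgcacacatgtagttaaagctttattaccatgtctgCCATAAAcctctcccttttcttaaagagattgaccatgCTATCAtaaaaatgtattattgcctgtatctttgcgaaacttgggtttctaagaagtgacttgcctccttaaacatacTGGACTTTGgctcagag
Klf6 -47.9 kb: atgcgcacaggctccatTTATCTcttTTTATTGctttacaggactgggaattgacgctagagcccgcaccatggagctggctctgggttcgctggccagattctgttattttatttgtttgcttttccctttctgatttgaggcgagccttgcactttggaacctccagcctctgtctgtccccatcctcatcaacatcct
Klf3 +58.5 kb: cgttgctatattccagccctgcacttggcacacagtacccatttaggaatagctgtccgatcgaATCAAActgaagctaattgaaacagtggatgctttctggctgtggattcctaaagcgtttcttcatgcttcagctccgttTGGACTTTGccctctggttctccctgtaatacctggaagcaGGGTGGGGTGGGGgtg
Klf3 +61.5 kb: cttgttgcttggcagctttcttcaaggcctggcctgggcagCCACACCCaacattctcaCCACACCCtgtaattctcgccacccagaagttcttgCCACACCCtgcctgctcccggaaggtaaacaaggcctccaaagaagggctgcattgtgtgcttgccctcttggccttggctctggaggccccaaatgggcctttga

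The number of peaks differed widely between the 9 loci. Over the 6 lists the mean number of peaks per list was 16 at Klf13, 10.7 at Klf10, 10.5 at Klf3, 10.3 at Klf6, 8.67 at Klf15, 8.17 at Klf9, 7.33 at Klf5, 6.5 at Klf4 and 2.83 at Klf2. The median over the members was 8.67 peaks, against 6.17 over all 18639 protein-coding genes with a peak in the same kind of window. Per 100 kb of window the medians were 7.69 and 4.53. Klf13, whose window is the longest at 152.6 kb, stood at the 96.6th percentile of all genes by count and the 91.9th per 100 kb. Klf4, at percentiles 53.1 and 65.7, and Klf5, at 60.1 and 66.8, were nearer the middle of all genes, and Klf2 stood at the 21.6th and the 30.5th.

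Of the 113 consensus peaks, 55 (48.7%) were called in all 6 lists and 28 in only 1. Among all consensus peaks 45.9% were called in all 6. By position, 53 of the 113 summits were intergenic, 23 lay in the body of the member, 20 within another gene, 14 in a promoter of the member and 3 in a promoter of another gene (Cfap100, Gm27252 and Gm8705). For 69 of the 96 distal peaks the nearest start of a protein-coding gene was that of the member itself. The exceptions were at Klf13 (7 of 22 distal peaks nearest to Klf13), where the gene E030018B13Rik lies within the window, at Klf15 (1 of 6), which neighbours Cfap100 and Aldh1l1, at Klf2 (0 of 4), whose distal peaks were nearest to Gm10282 or Eps15l1, and at Klf10 (11 of 14).

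**Figure D1:**
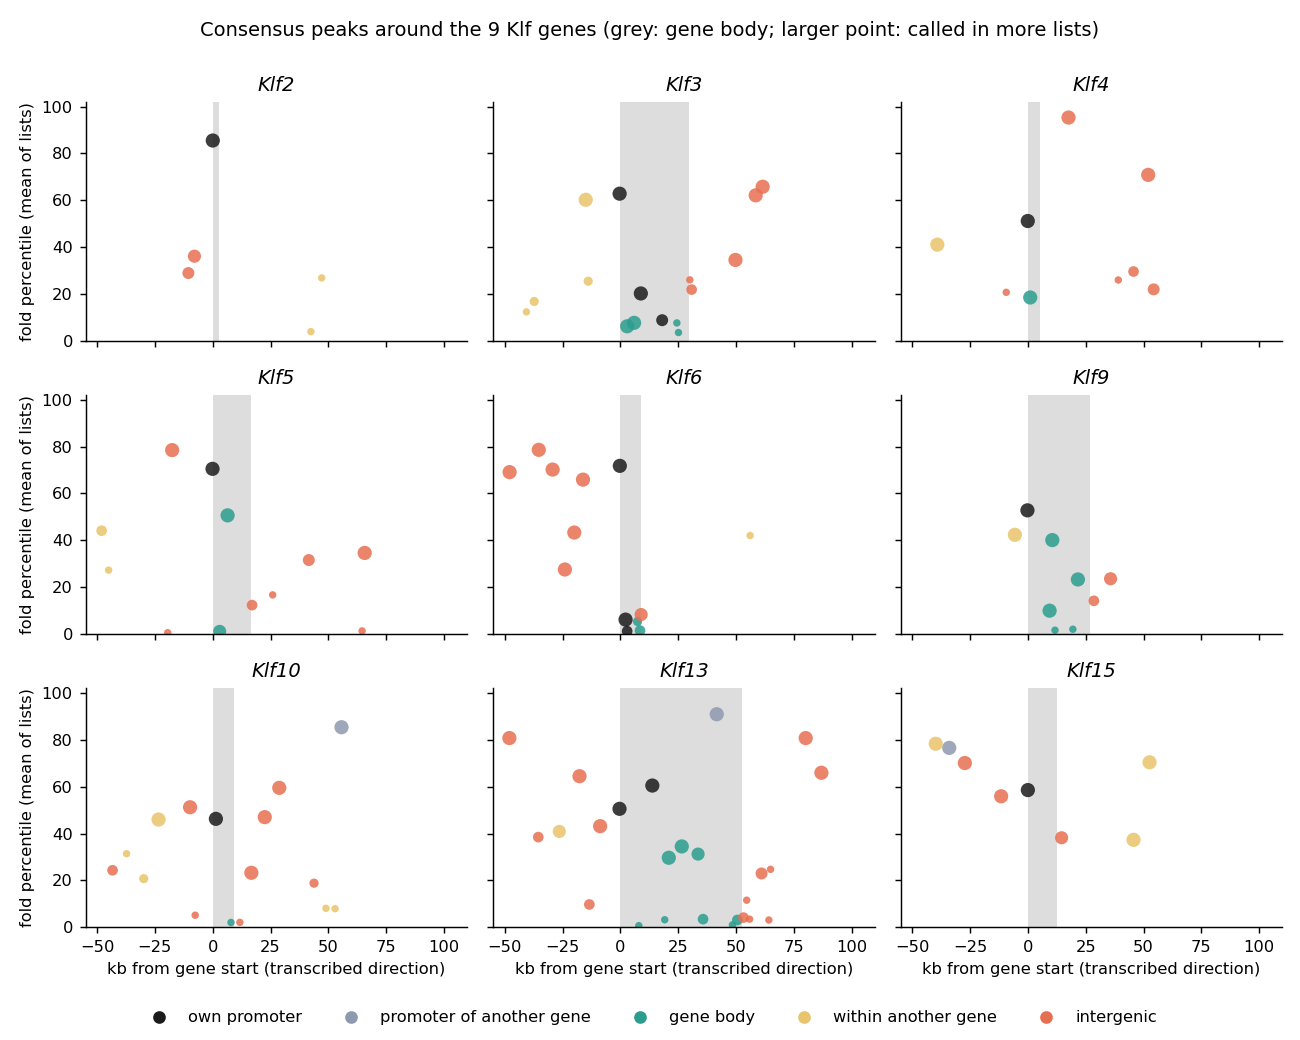
Consensus peaks at the 9 loci, with distance of the summit from the gene start in kb (transcribed direction) on the x axis and the mean percentile of fold over the lists that called the peak on the y axis. Each point is 1 of the 113 peaks, larger when called in more lists and coloured by position, with the gene body in grey. Klf2 has 1 high promoter peak and little else, Klf6 has a row of upstream intergenic peaks, and Klf13 is the densest locus.

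The strength of each peak was first read from the fold, the ratio of the summit pileup to the local background of the caller, as a percentile within its own list (0 weakest, 100 strongest). For each member the promoter peak with the largest mean percentile was taken. By this measure the promoters of all members but Klf2 lay below the middle of shared promoter peaks. The mean percentile over 6 lists was 85.5 at Klf2, 71.8 at Klf6, 70.5 at Klf5, 62.8 at Klf3, 60.5 at Klf13, 58.6 at Klf15, 52.8 at Klf9, 51.1 at Klf4 and 46.3 at Klf10. The median of the 9 was 60.5, against 81.5 over the 12071 promoter peaks called in all 6 lists.

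By the pileup itself the order was different. The pileup at each summit could be recovered as a whole number from the fold and p columns for 100% of peaks in every list. In percentiles of pileup the median of the 9 promoters was 95.9, against 84.2 for all shared promoter peaks. Klf10 stood at 99.8, 99.9 and 99.8 in WT 1, 2 and 3 and at 99.7, 99.4 and 99.4 in cKO 1, 2 and 3, while its fold percentile was 63.0, 56.4 and 47.7 and 31.1, 52.5 and 26.9. The promoter at the 5′ end of Klf13, 0.4 kb before the start, had pileups of 159, 327 and 389 in WT and 445, 271 and 315 in cKO lists, which is percentile 99.7 to 99.9 in each list. This peak was added to the comparison after its values were seen, because the promoter peak of Klf13 with the largest fold percentile was another one, at an internal start 13.8 kb downstream. Among the 12071 shared promoter peaks ranked by mean pileup percentile, the 5′ Klf13 peak stood at percentile 99.6, Klf10 at 99.1, Klf3 at 96.8 and Klf9 at 91.2. By fold the same peaks stood at 14.4, 11.6, 24.0 and 15.98.

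No input control was used, so the caller took the local background from reads of the same sample. The part of a peak's own signal in this background was not tested. The local background separated the measures. At the 5′ Klf13 promoter it was 12.3, 24.9 and 31.0 times the genome-wide value in WT 1, 2 and 3 and 38.8, 20.2 and 28.4 times in cKO 1, 2 and 3. At Klf10 it was 11.8, 25.8 and 30.6 times and 38.4, 19.4 and 28.4 times. Among shared promoter peaks both are at percentile 99.9 of local background. At Klf3 and Klf9 the background was 8.6 to 24.4 and 8.2 to 25.8 times the genome-wide value. It was 3.94 times in the mean at Klf15, below the median of 4.84 for all shared promoter peaks, and Klf15 was also lowest of the members by pileup, at 62.2 to 73.6. Some promoter peaks were also broad, with a high or a low background. The consensus peaks at Klf9, Klf10 and the 5′ end of Klf13 spanned 2911, 2869 and 2714 bp, and that at Klf15 2231 bp. The median of shared promoter peaks was 1314 bp. These spans join the peaks of 6 lists. At Klf10, WT 2 and WT 3 held 2 peaks, of which that with more pileup was 1161 and 1178 bp wide.

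**Figure D2:**
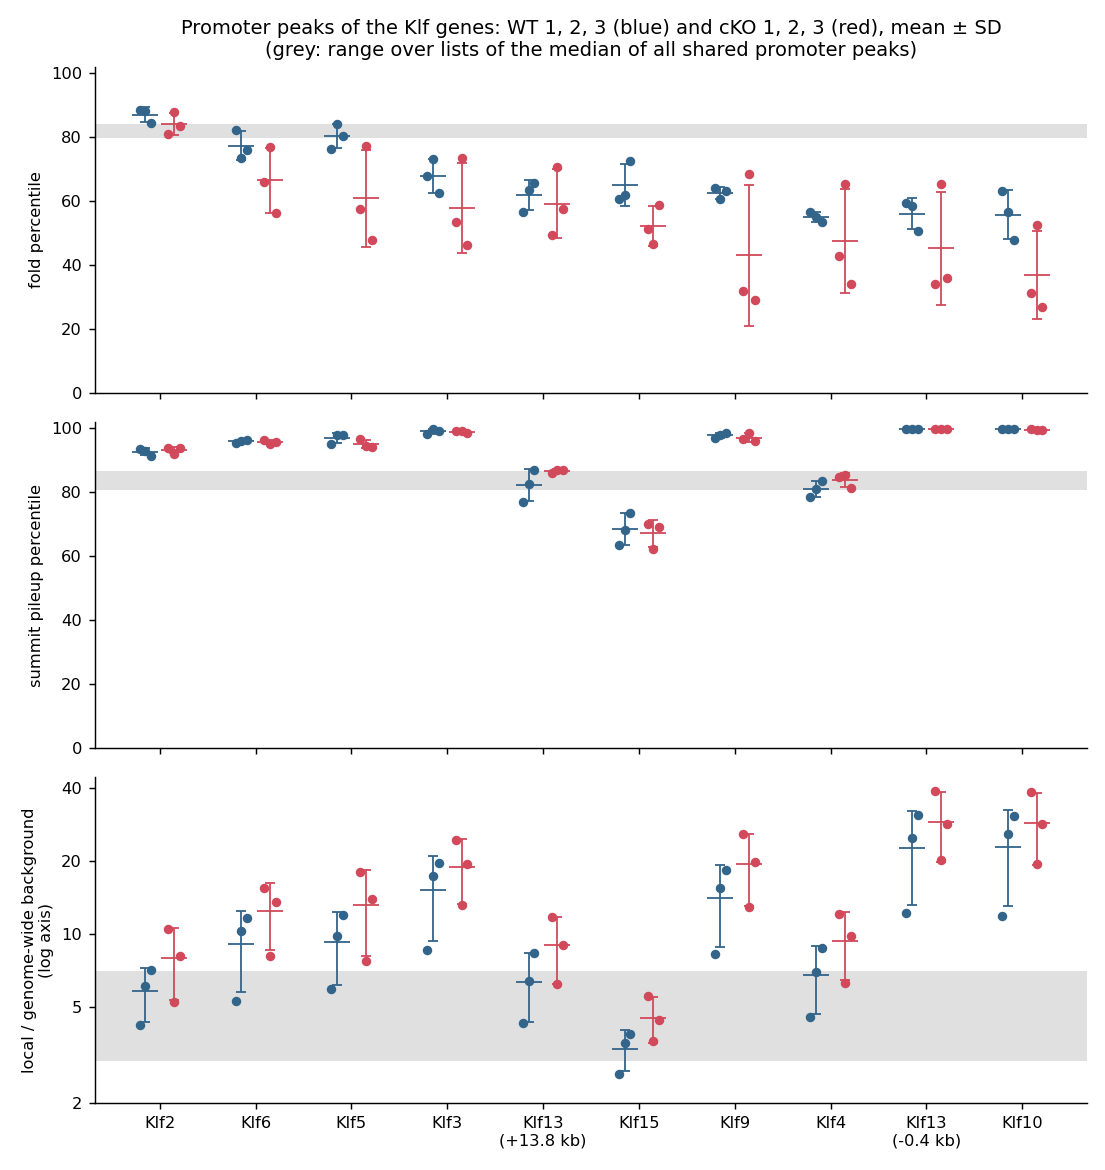
Promoter peaks of the 9 members, with Klf13 at 2 starts, by list (points), with mean and SD over 3 lists per genotype (bars). The panels give the fold percentile, the summit pileup percentile and, on a log axis, the local background over the genome-wide background, and the grey band is the range over the 6 lists of the median of all 12071 shared promoter peaks. The fold percentiles lie mostly below the band, the pileup percentiles mostly above it, and cKO 1 and cKO 3 lie below cKO 2 by fold at most genes.

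Klf5 and Klf4 are the members best known from the crypt and the villus. Klf5 (ENSMUSG00000005148.8, chromosome 14 from 99298691 to 99315036, plus strand) had a promoter peak with a pileup of 106, 219 and 259 in WT and 292, 135 and 181 in cKO lists. By fold the peak stood at 76.4, 84.1 and 80.3 in WT and at 57.4, 77.2 and 47.7 in cKO lists, in the order of the sample numbers used throughout. The cKO 2 value lay within the range of WT, and the other cKO lists were lower. The means were 80.2 ± 3.86 and 60.8 ± 15.1 (SD, n = 3), a difference of -19.5 points (SE 8.06), with a limma adjusted p of 0.771. Scaled within the list, the pileup was also lower in the mean in cKO lists. Relative to the median shared promoter peak of the same list, the Klf5 pileup was 1.91 ± 0.230 times in WT and 1.60 ± 0.104 times in cKO lists, and on quantile-normalised log2 pileup the difference was -0.22 (SE 0.095, limma adjusted p 0.533). The distal peak 17.6 kb upstream had the highest lowest value of the distal peaks, at 86.2, 79.3 and 81.6 in WT and 72.9, 80.1 and 70.9 in cKO lists, and its groups overlapped. A further shared peak lay 65.7 kb from the start, past the gene, at 15.1 to 62.2.

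Klf4 (ENSMUSG00000003032.8, chromosome 4 from 55527143 to 55532466, minus strand) had its strongest peak away from the promoter. The intergenic peak 17.5 kb from the start stood at fold percentiles of 89.8, 99.2 and 97.6 in WT and 98.5, 93.1 and 93.6 in cKO lists, and its pileup was 66, 145 and 165 in WT and 206, 92 and 108 in cKO lists. The genotypes did not separate, with means of 95.5 ± 5.06 and 95.1 ± 2.98. The Klf4 promoter peak stood at 56.5, 54.8 and 53.4 in WT and 42.6, 65.4 and 33.9 in cKO lists. The pileup percentile of the promoter, 78.5 to 85.3, was below that of the distal peak in every list except cKO 3, where both were 81.2. Another intergenic peak, 52.0 kb from the start, stood at 54.2 to 82.3 by fold.

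Klf2 (ENSMUSG00000055148.7, chromosome 8 from 72319033 to 72321656, plus strand) had the promoter with the highest fold percentile of the members and the fewest peaks around it. Its promoter peak stood at fold percentiles of 88.5, 88.1 and 84.3 in WT and 80.8, 87.8 and 83.4 in cKO lists. Of the 4 other consensus peaks at the locus, the intergenic ones at -7.9 and -10.5 kb were called in 5 and 4 lists, and the other two in 1 list each. The number of peaks was 1, 3 and 2 in WT and 5, 3 and 3 in cKO lists, which overlapped at 3. Of 10 leukocyte markers only Cd2 had a promoter peak, in all lists but WT 1, and its part in the Klf2 values was not tested.

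Klf6 (ENSMUSG00000000078.7, chromosome 13 from 5861482 to 5870394, plus strand) had 6 intergenic peaks upstream that were called in all 6 lists, from 16.2 to 47.9 kb before the start. The peak at -35.3 kb had the highest lowest value of the distal peaks, at 68.0, 71.7 and 85.4 in WT and 84.6, 74.7 and 87.2 in cKO lists. The farthest, at -47.9 kb, had the largest difference of all shared member peaks toward cKO. By fold it stood at 55.6, 48.0 and 71.8 in WT and at 94.1, 57.1 and 87.9 in cKO lists, and cKO 2 lay within the WT range. The difference of 21.2 points (SE 10.5) had a limma adjusted p of 0.771. Its pileup was 17, 16 and 26 in WT and 48, 17 and 37 in cKO lists, and its local background was 1.0 to 1.2 times the genome-wide value. Fold and pileup were both higher in cKO 1 and cKO 3 here. The peaks at -24.0 and -19.9 kb pointed the other way, at differences of -14.1 and -14.8 points. The Klf6 promoter peak stood at 95.2 to 96.5 by pileup in all lists.

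Klf3 (ENSMUSG00000029178.14, chromosome 5 from 64803388 to 64832901, plus strand) had a promoter peak with a pileup of 129, 301 and 302 in WT and 372, 207 and 245 in cKO lists, at pileup percentiles of 98.2 to 99.7. This peak also covers the start of C230096K16Rik, so the promoters cannot be told apart. Downstream of the gene, peaks 58.5 and 61.5 kb from the start lay about side by side. The first stood at 63.3, 60.04 and 57.6 by fold in WT and at 55.3, 70.8 and 65.3 in cKO lists. The second stood at 69.9, 73.9 and 71.2 in WT and at 61.5, 69.2 and 48.7 in cKO lists, without overlap. Within the introns the peaks at +3.0 and +5.9 kb were strong by pileup (88.1 to 91.3 and 82.7 to 90.5) and weak by fold (3.2 to 9.8 and 3.4 to 11.0), with a local background up to 33.8 times the genome-wide value.

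Klf9, Klf10 and Klf13 are the members that recruit Sin3. Klf9 (ENSMUSG00000033863.2, chromosome 19 from 23141226 to 23168134, plus strand) had a promoter peak at fold percentiles of 64.2, 60.5 and 63.0 in WT and 31.7, 68.4 and 29.0 in cKO lists. The cKO 2 list was above all WT lists and the other cKO lists were below them, and by pileup all 6 lay between 96.0 and 98.7. A broad peak 5.6 kb upstream, in an exon of 2410080I02Rik, stood at 94.6 to 96.7 by pileup, below the promoter in every list. At Klf10 (ENSMUSG00000037465.10, chromosome 15 from 38291463 to 38300706, minus strand) the difference in promoter fold percentile was -18.8 points (SE 9.53, limma adjusted p 0.771), with cKO 2 within the WT range. Its pileup was 2.84 ± 0.305 times the promoter median in WT and 2.44 ± 0.160 times in cKO lists, a quantile-normalised log2 difference of -0.18 (SE 0.080, limma adjusted p 0.534). The summit with the most pileup in the Klf10 promoter peak lay at 38301024 in cKO 1 and cKO 3. It lay between 38299356 and 38299485 in the WT lists and cKO 2, and WT 2 and WT 3 held 2 peaks there. The promoter values of Klf10 were therefore not read at one site in all lists. The distal peak of Klf10 with the highest lowest value, 28.7 kb from the start, stood at 52.8 to 68.4 by fold. The highest distal fold percentile at the locus was 53.5, 59.7 and 65.8 in WT and 67.6, 57.2 and 68.4 in cKO lists. That was above the promoter by fold in every list but WT 1.

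Klf13 (ENSMUSG00000052040.10, chromosome 7 from 63886351 to 63938915, minus strand) had 25 consensus peaks, 10 of them in all 6 lists. The strongest by fold, 41.7 kb into the gene, stood at 87.2 to 94.4 and lies in a promoter of Gm27252. Among the distal peaks, that at -48.0 kb stood at 81.7, 80.0 and 77.6 in WT and 83.2, 77.2 and 84.97 in cKO lists. The peak at +80.1 kb stood at 72.9, 73.5 and 85.6 in WT and 86.7, 85.7 and 80.2 in cKO lists. Both overlapped between genotypes.

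Klf15 (ENSMUSG00000030087.11, chromosome 6 from 90462576 to 90475238, plus strand) had the weakest promoter by pileup, at 39, 55 and 77 in WT and 86, 40 and 70 in cKO lists. In cKO 2 the summit of this peak lay farther into the gene, outside the promoter window, so the list counted no promoter peak although the consensus peak was called in all 6 lists. By fold, the stronger peaks of the locus lay in or near other genes. The peak 39.8 kb upstream, in an intron of Cfap100, stood at 67.4, 75.9 and 82.3 in WT and 90.1, 74.1 and 80.2 in cKO lists. Its pileup was 29, 35 and 48 in WT and 51, 35 and 37 in cKO lists. That was below the promoter in every list.

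The comparison of the genotypes asked whether loss of Arid3a changed accessibility at these genes. Of the 55 member peaks called in all 6 lists, limma on the fold percentiles called 0 at an adjusted p under 0.05, against 0 of 32748 (0%) among all shared peaks. At an unadjusted p under 0.05 there were 1 member peak, the Klf5 promoter, and 1876 peaks in all. On the quantile-normalised log2 pileup limma called 0 member peaks and 4 of 32748 (0.0122%) in all, and 4 of the 55 member peaks, against 2724 of all 32748, had an unadjusted p under 0.05. The lowest adjusted p of a member peak was 0.771 on fold percentiles and 0.527 on pileup. An adjusted p above the threshold does not show that the genotypes were alike at a peak.

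Fold percentiles did not overlap between genotypes at 0 member peaks in the direction of cKO, against 4.66% of all shared peaks, and at 4 of 55 in the direction of WT, against 7.04%. The 4 were the peaks of Klf3 at +5.9 and +61.5 kb, the Klf15 promoter and the peak 5.6 kb before Klf9. At the last, WT stood at 58.1, 50.9 and 49.99 and cKO at 26.4, 49.6 and 19.1, with cKO 2 just below the lowest WT list. At the Klf15 promoter WT stood at 60.6, 61.9 and 72.4 and cKO at 51.2, 46.5 and 58.7, and the difference was -12.8 points (SE 7.98, limma adjusted p 0.771). At Klf3 +5.9 kb all 6 values were between 3.4 and 11.0. By pileup percentile other peaks did not overlap, with Klf3 +58.5 kb higher in cKO (81.1, 86.6 and 86.0 in WT, 89.7, 88.8 and 91.0 in cKO lists) and the Klf10 promoter lower, by a mean difference of -0.322 points. That is 1 of 55 in each direction, against 6.44% of all shared peaks higher and 1.4% lower in cKO lists. The Klf10 values were read at summits that differed between lists.

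All 9 promoter peaks had a lower mean fold percentile in cKO than in WT lists, with a median difference of -10.8 points. Over all shared promoter peaks the median difference was -1.26 points and 61.3% were lower. By pileup percentile the median difference of the 9 was -0.219 points, with 6 lower and 3 higher, and that of all shared promoter peaks was 0.821. The direction at Klf2, Klf4 and Klf13 (at its internal start) turned with the measure, to 0.616, 2.66 and 4.56 points. The 5′ promoter of Klf13, which was not among the 9, differed by -10.9 points by fold and 0.00534 by pileup. The local background at the member promoters was highest in cKO 1 in every case. So was the median of all shared promoter peaks, at 7.03 times the genome-wide background. The part of the local background in the fold difference was not tested. The 40 shared distal member peaks had a median difference of 2.40 points by fold and 1.74 by pileup, against 1.15 and 2.99 for all 20677 shared distal peaks.

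**Figure D3:**
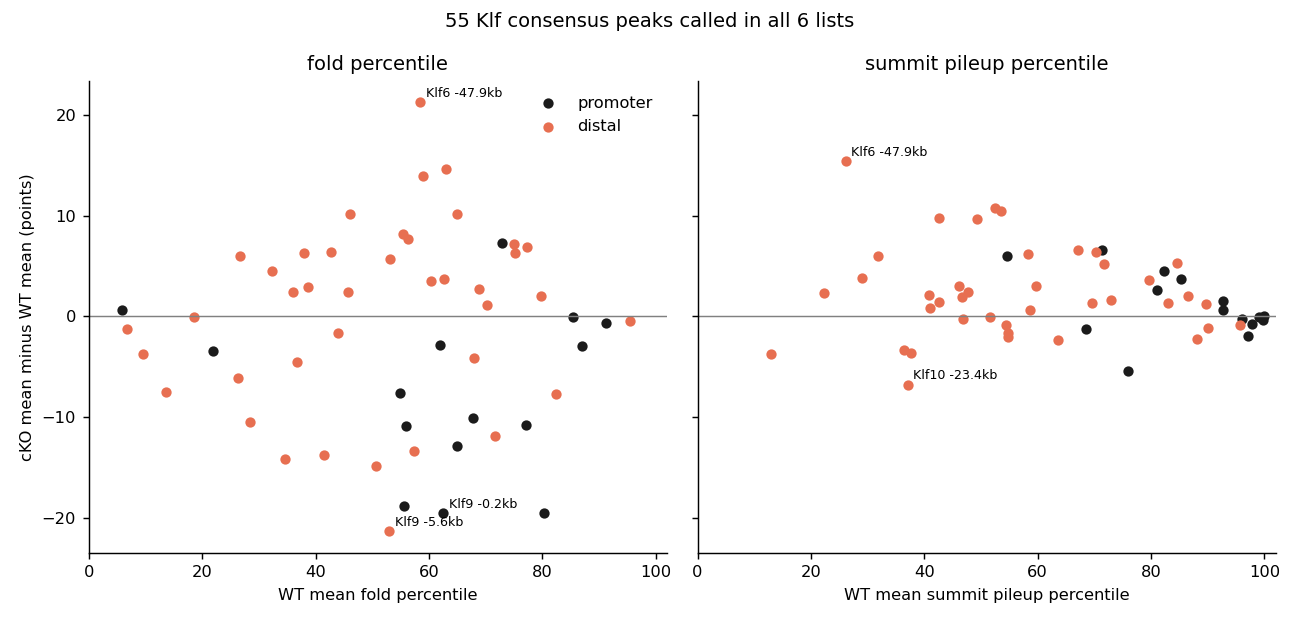
Difference between genotypes (cKO mean minus WT mean, in percentile points) against the WT mean for the 55 member peaks called in all 6 lists, by fold percentile (left) and by summit pileup percentile (right), with promoter peaks of any gene in black and distal peaks in orange. The promoters lie mostly below 0 by fold and near 0 at the right end by pileup, and Klf6 -47.9 kb is the highest point in both panels.

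Peaks called in one genotype only were few. The peak 35.7 kb into Klf13, in an intron, was called in all 3 cKO lists and no WT list, at fold percentiles of 2.4, 6.4 and 1.5. The peak 2.9 kb into Klf6, at an internal start, was called in the 3 WT lists and in no cKO list, at 0.5, 2.5 and 0.6. Both were among the weakest peaks of their lists by fold. By pileup percentile the Klf13 peak stood at 34.2, 37.5 and 31.6 and the Klf6 peak higher, at 56.8, 73.1 and 69.3. That is 1 of 113 in each direction, against 0.464% of all consensus peaks for cKO lists and 0.111% for WT lists.

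The number of peaks at the loci did not separate the genotypes either. Over the 9 loci the WT lists held 70, 85 and 86 peaks and the cKO lists 88, 77 and 80, or 80.3 ± 8.96 and 81.7 ± 5.69 (SD, n = 3). Per 10000 peaks of the list these were 16.6 ± 0.858 and 15.7 ± 0.767. The counts overlapped or met at each of the 9 genes, while 1.35% of all genes had counts that were higher in every cKO list and 0.504% counts that were lower. Klf10 came with 10, 12 and 12 peaks in WT and 10 in each cKO list.

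**Figure D4:**
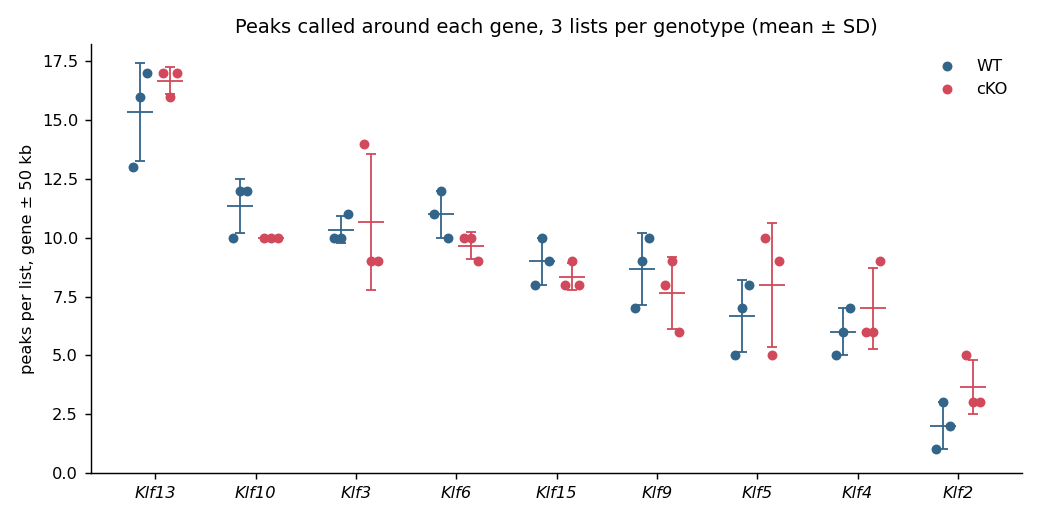
Peaks called in each list within 50 kb of each member gene, with 3 lists per genotype as points and the mean and SD as bars. The order runs from Klf13 with 13 to 17 peaks to Klf2 with 1 to 5, and the WT and cKO points overlap or meet at every gene.

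Motifs were sought in the 201 bases around each summit on both strands without mismatches. A KLF site was CCACACCC, CCACGCCC, CCCCACCC or CCCCGCCC. An HNF4 site was CAAAGTCCA or CAAAGTTCA. An AP-1 site was TGACTCA, or the same with G in place of its central C. An ARID3 site was ATCAAA, or the same with T in place of C. A CDX site was TTTATTG, or the same with G in place of its last T. A GATA site was GATA after A or T and before A or G. A TCF site was CTTTGAT. A TCF match always contains an ARID3 match on the other strand. A KLF site lay in 6 of the 12 own-promoter peaks called in all 6 lists (Klf3 at 2 starts, Klf4, Klf10, Klf13 at its internal start, and Klf15), against 34.6% of all shared promoter peaks. Among the 40 shared distal peaks 9 held one (22.5%), against 16.1%. Over all 113 consensus peaks of the loci, shared or not, 19 held one (16.8%), against 16.9% of all 71286. An ARID3 site lay in 4 of the 40, against 16.9%, and at 1 of the 12 promoters, that of Klf6, against 5.29%. Over all 113 consensus peaks 21 held one (18.6%), against 16.1%. An HNF4 site lay in 2 of the 40, at Klf5 -17.6 kb and Klf3 +58.5 kb, against 3.78%. CDX sites lay in 4 of the 40, against 11.7%, GATA sites in 12, against 35.2%, and TCF sites in 0, against 4.02%. At the 12 own promoters GATA sites lay in 3, against 10.4%. AP-1 and CDX sites lay in 1 each of the 12, against 3.01% and 2.47%. HNF4 and TCF sites lay in 0 of the 12, against 0.795% and 1.27%. AP-1 sites lay in 6 of the 40, against 11.2%, 2 of them upstream of Klf6 and 2 at Klf13. In the RefSeq promoters, 300 bases each, 5 of 7 members held a KLF site, against 29.7% of 32851 promoters. The windows at own promoters had a median GC content of 69.4% and those at distal peaks of 51.5%, against 65.7% and 50.7% over all shared peaks of the same class. A match is a run of letters and says nothing of binding.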

How the data were processed

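ATAC-seq was done on nuclei of intestinal crypt cells from 3 WT and 3 Arid3a cKO mice. The authors trimmed reads with Trim Galore, aligned them to GRCm38 with BWA, removed blacklisted regions and called narrow peaks per sample with MACS2 through the nf-core pipeline, with no input control. bedtools is named in the submitters' processing notes. Each list deposited by the authors gives a fold ratio, a −log10 p, a −log10 q and a score for each peak. The score deposited by the authors follows the −log10 q and was not used further. Total read numbers were not used here, so depth is known only through the recovered pileups and backgrounds, and a count of peaks carries no counting interval.

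Only the 21 assembled nuclear chromosomes were used, and genes came from GENCODE M21 (Ensembl 95). The largest peak end lay within the length of all 21 chromosomes of the GRCm38.p6 sequence, and 0 of 15 pairs of lists were identical. Fold was turned into a percentile within each list. The caller writes fold as (pileup + 1) / (background + 1) and p from a Poisson model of the background, which gave a whole pileup within a relative tolerance of 2e-05. A consensus peak was called in a list with any peak in it, and took the highest percentile of that list's peaks. Percentiles of consensus peaks called in all 6 lists were compared with limma 3.58.1 in R 4.3.3 (lmFit and eBayes with a trend, genotype only), with Benjamini-Hochberg adjustment over all 32748 peaks and a threshold of 0.05. The fit was also run on simulated data with independent noise in each list, which does not cover lists that deviate together. Python 3.11.15, numpy 2.4.6, pandas 2.3.3, scipy 1.17.1, pysam 0.24.0 and matplotlib 3.10.9 were used.

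Named peaks were, for each member, the promoter peak with the largest mean percentile, the distal peak called in all 6 lists with the highest lowest percentile, every peak called in 3 of 3 lists of one genotype and 0 of 3 of the other, and up to 5 peaks without overlap in each direction. Other member peaks named in the text, such as Klf6 -47.9 kb and the 5′ Klf13 promoter, were chosen after their values were seen. The members, lists and tests were chosen with earlier results of these data known. The alternatives were percentiles of −log10 q, quantile-normalised log2 fold, equal list length, a minimum −log10 q of 5, fixed windows around summits sharing 50%, flanks of 25 and 100 kb, the replicate number as a block and leaving out each sample. The summit pileup in place of fold was added after the data were seen.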

Additional observations from a re-analysis of the deposited data

How the results depend on the processing

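Limma called 0 member peaks under each alternative it was fitted to, with lowest adjusted p from 0.320 (without cKO 2) to 1 (without cKO 1). No limma fit was made with the fixed windows or the other flanks. For samples of the same number, deviations from the genotype mean over shared peaks correlated at -0.298, -0.0284 and 0.135 for numbers 1, 2 and 3. Pairs of different numbers ran from -0.349 to 0.334. Deviations from a mean of 3 samples are tied to each other, so these values cannot tell whether samples of the same number are related. With the replicate block limma called 0 member peaks, as without it, and WT 1 correlated best with cKO 2 (0.298) and WT 3 with cKO 1 (0.334).

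Counts of member peaks without overlap were unstable. Higher in cKO they were 1 of 55 by −log10 q (2200 of all 32748 shared peaks) and 1 by summit pileup (2108), in place of 0. They were 1 to 7 when a sample was left out. Without cKO 2 they were 7 of 56, against 5860 of 33930 shared peaks in all. Without WT 3 they were 6 of 55, against 4330 of 32899. Lower in cKO they were 2 of 55 by −log10 q (732 of all 32748) and 1 by summit pileup (458), in place of 4. They were 2 of 48 with −log10 q of at least 5 (1702 of 27287) and 1 of 49 with equal list length (2081 of 29584). When a sample was left out they were 6 to 19. Without cKO 2 they were 19 of 56, against 7106 of 33930 shared peaks in all. The peaks counted were not the same: by −log10 q they were the Klf10 promoter and Klf9 -5.6 kb. Peaks called only in cKO lists were 0 of 85 with equal list length (264 of all 53118) and 0 of 135 with fixed windows around summits (352 of 80926). They were 1 to 2 with a sample left out, against 419 to 1819 of all consensus peaks. With −log10 q of at least 5 the single one (282 of all 56741) was a peak of Klf2 10.5 kb upstream in place of that of Klf13. Peaks called only in WT lists were 0 with −log10 q of at least 5 (29 of all 56741). They were 1 to 2 with a sample left out, against 128 to 669 of all consensus peaks. The difference in peaks per list, 1.33, was -0.811 per 10000 peaks of the list, -3.67 with equal list length, -1.67 with flanks of 25 kb, 4.33 with flanks of 100 kb and 6.33 with −log10 q of at least 5. It ran from -3.83 (without WT 1) to 4.17 (without WT 3) when a sample was left out, with -1.83 without cKO 1, 3.67 without WT 2 or cKO 2 and 2.17 without cKO 3.

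The promoter differences turned at Klf2 (0.50), Klf4 (1.65) and Klf13 (4.48) by −log10 q, at the same genes by summit pileup (0.616, 2.66 and 4.56), and at Klf13 when samples were left out (-8.53 without cKO 2 to 2.15 without cKO 1). Without cKO 3 the difference at Klf4 was -0.883. The Klf13 values are those of its internal start. The cause of these changes was not tested. The median summit pileup was 28 to 44 per list, and total depth is unknown.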

Other observations

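The other KLF and SP genes differed in how far their promoters were open by the same rule. Of 17 genes (Klf1, Klf7, Klf8, Klf11, Klf12, Klf14, Klf16, Klf17 and Sp1 to Sp9), 7 had a promoter peak in all 6 lists and 3 in no list, Klf1, Klf14 and Klf17. Klf1 is known as the erythroid member. Klf7 had the highest fold percentiles, at 95.3, 91.9 and 87.0 in WT and 90.5, 92.5 and 86.6 in cKO lists. Klf8 and Klf12 had a promoter peak in 4 lists each. Sp5, a target of Wnt signalling, had one in WT 1 (34.6) and cKO 3 (27.1) only, Sp7 in WT 3 only (7.2), and Sp3, Sp6 and Sp9 in all lists but WT 1. Over the whole list the number of genes with a promoter peak was 8, 12 and 12 in WT and 11, 12 and 13 in cKO lists, so the genotypes overlapped.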
